A study of Mus musculus with 7 samples.

Results

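The cytosolic tRNA repertoire of astrocytes was compared with that of oligodendrocyte progenitor cells (OPCs), the cells from which these astrocytes were made. The comparison used 5 of the 7 libraries of the series, 3 from OPCs and 2 from astrocytes. It covered all 52 listed anticodon pools and the 192 of 217 listed isodecoders that had a mean of at least 1 RPM over the 7 libraries, and 25 isodecoders below that level were left out. The OPCs were mouse cells of the 129S/SvEv background, derived in culture from epiblast stem cells of male embryos. They were kept in 20 ng/mL bFGF and 20 ng/mL PDGFA. The astrocytes were made from OPCs over 3 days in a medium with 20 ng/mL bFGF, 10 ng/mL BMP4, 10 ng/mL CNTF and 5 ng/mL Hb-EGF, so bFGF was common to both groups and PDGFA was in the OPC medium only. The base medium and other supplements also differed between the groups, so cell type and medium cannot be told apart. Both are cultured models of glia rather than cells taken from brain. The tables hold only tRNAs, so neither cell type could be checked against its messenger RNA markers.

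OPCs are dividing glial cells that give rise to the myelin-forming cells of the brain, and astrocytes are glia that support neurons. A tRNA carries an amino acid to the ribosome and reads a codon through its anticodon. tRNAs with the same anticodon form a pool, and the members of a pool that differ in the rest of their sequence are called isodecoders, each of which can be made from 1 or several genes. Pools that carry the same amino acid with different anticodons are isoacceptors. The supply of each pool is one of the factors known to set how quickly its codons are decoded. Isodecoders of one pool share their anticodon and are known to differ in stability, processing and expression between tissues. QuantM-seq, the assay used here, joins an adapter to the ends of mature tRNAs after their amino acids have been removed and counts the reads of each tRNA.

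Values were in RPM, which set the reads of all tRNAs of a library, mitochondrial ones included, to a sum of 1000000. Between 1339021 and 2627351 reads were assigned to tRNAs per library, and the listed cytosolic tRNAs took between 921216 and 950192 RPM. A tRNA without a read may still have a level of up to 3 reads, which is between 1.14 and 2.24 RPM per library. This limit covers counting error only. The median absolute log2 difference between replicate libraries was 0.107 to 0.176 over anticodon pools and 0.171 to 0.256 over isodecoders. These replicate differences were larger than counting error in every pair, the chi-square divided by its degrees of freedom being at least 91.8 over anticodon pools and 31 over isodecoders. All log2 differences below are astrocytes minus OPCs on the log2(RPM + 1) scale. A pool takes a share of a fixed total, so a lower value is a smaller part of the tRNA reads, and fewer molecules per cell cannot be told apart from more of the other tRNAs or from a change in the mix of cells. The study describes that modified bases can alter the sequence and length of the reads in this assay. Their part in the values was not tested.

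At the level of anticodon pools no difference between astrocytes and OPCs passed the test. None of the 52 pools passed an adjusted p of 0.01 (0%), the threshold of the study, or of 0.05 (0%) in limma, and 6 had an unadjusted p under 0.05. The lowest adjusted p was 0.224. The median log2 difference was 0.0029 and the median absolute difference 0.163. For 39 of the 52 pools the 95% interval of the difference lay within 1.5-fold in either direction, so a larger difference was outside the interval for these pools. Cys-ACA, listed at 0 in all libraries, is one of the 39. Both astrocyte libraries lay below all 3 OPC libraries in 10 of the 52 pools (19.2%) and above them in 7 (13.5%).

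**Figure D1:**
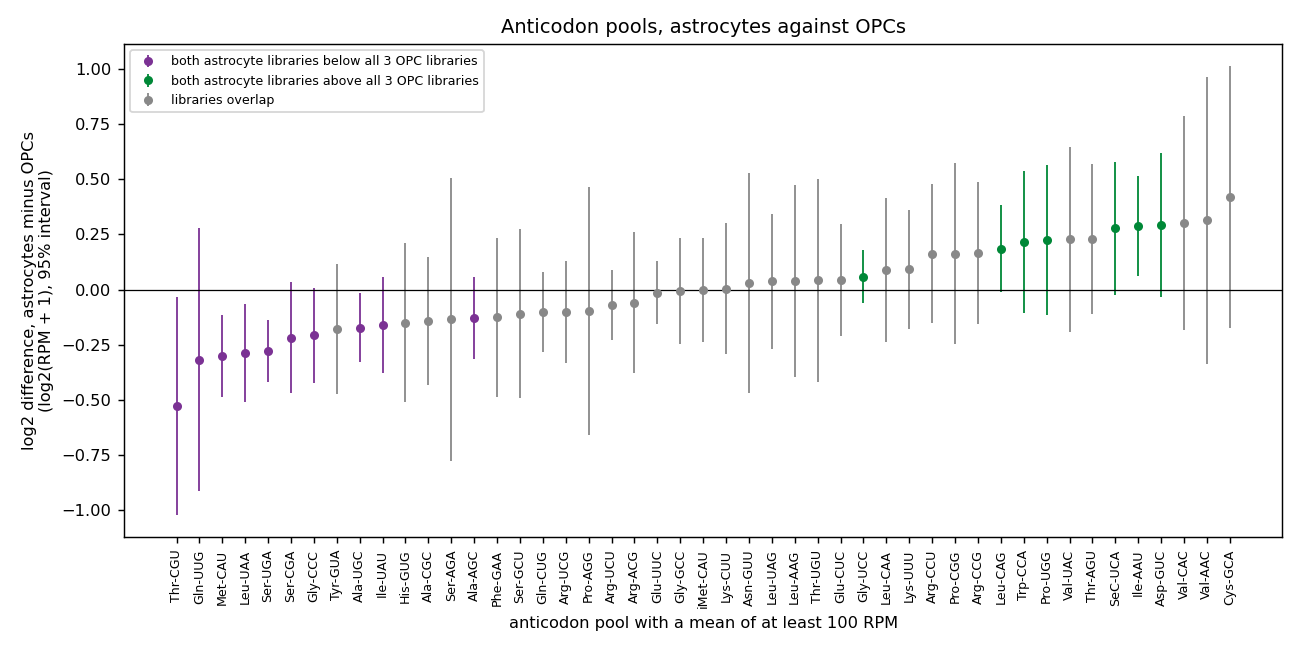
Log2 difference (astrocytes minus OPCs, y axis) for each anticodon pool with a mean of at least 100 RPM (x axis, ordered by the difference). Points are limma estimates from 3 OPC and 2 astrocyte libraries, bars are 95% intervals, and colour marks whether the libraries of the groups overlap. Thr-CGU lies lowest at -0.53, and most intervals include 0.

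Of the 6 pools with an unadjusted p under 0.05, 5 were lower in astrocytes. Ser-UGA, which reads the serine codon UCA, had the lowest p. It was at 21811, 22581 and 21591 RPM in OPCs and at 18700.3 and 17583 RPM in astrocytes. The groups did not overlap, and the log2 difference was -0.28 (SE 0.053, unadjusted p = 0.00431, adjusted p = 0.224). The elongator methionine pool Met-CAU, which places methionine within a growing chain, was at 75277, 82431 and 76434 RPM in OPCs and at 65211 and 61488 RPM in astrocytes. It was among the most abundant pools, and its 2 astrocyte libraries were the lowest of the 5. The log2 difference was -0.30 (SE 0.07, unadjusted p = 0.00932, adjusted p = 0.242).

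Leu-UAA, which reads the leucine codon UUA, was at 29606, 30014 and 31151 RPM in OPCs and at 26901 and 22915 RPM in astrocytes, a log2 difference of -0.28 (SE 0.084, unadjusted p = 0.0223, adjusted p = 0.303). Ala-UGC, which reads GCA, differed by -0.17 (SE 0.058, unadjusted p = 0.0362, adjusted p = 0.351). Thr-CGU, which reads ACG, had the lowest estimate of the pools with at least 100 RPM. It was at 2861, 3078 and 4053 RPM in OPCs and at 2334 and 2243 RPM in astrocytes, and the log2 difference was -0.53 (SE 0.19, unadjusted p = 0.0414, adjusted p = 0.351). The astrocyte libraries were close to each other and below all OPC libraries, while OPC replicate 3 was well above the other OPC libraries. Ile-AAU was the pool with a higher value in astrocytes among the 6. Its first anticodon base is converted to inosine, which lets it read AUU and AUC. It was at 11981, 10461 and 10358 RPM in OPCs and at 13170.1 and 13472 RPM in astrocytes, and the log2 difference was 0.29 (SE 0.086, unadjusted p = 0.0233, adjusted p = 0.303).

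The other pools whose libraries did not overlap had unadjusted p values above 0.05. Higher in both astrocyte libraries were Asp-GUC at 0.29, SeC-UCA at 0.28, Pro-UGG at 0.22, Trp-CCA at 0.22, Leu-CAG at 0.18 and Gly-UCC at 0.06 on the log2 scale. SeC-UCA, which inserts selenocysteine at recoded UGA codons, was at 2279, 2207 and 2098 RPM in OPCs and at 2546 and 2777 RPM in astrocytes, and the 95% interval of its difference was -0.02 to 0.58. Lower in both astrocyte libraries were Gln-UUG at -0.32, Ser-CGA at -0.22, Gly-CCC at -0.21, Ile-UAU at -0.16 and Ala-AGC at -0.13. The isoleucine isoacceptors thus had estimates of opposite sign, and the difference between them was not tested. The largest estimate of all, 0.74, belonged to Gly-ACC, a pool of under 100 RPM whose interval was -0.41 to 1.88.

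When the pools were summed by amino acid, methionine was the 1 of 23 pools (4.35%) past an adjusted p of 0.05, and none passed 0.01 (0%), with 3 at an unadjusted p under 0.05. The elongator methionine pool fell. It averaged 78047 RPM ± 3840.5 (SD, n = 3) in OPCs against 63349.5 RPM ± 2633 (SD, n = 2) in astrocytes, a log2 difference of -0.30 (SE 0.082, adjusted p = 0.047). The values are those of Met-CAU, which did not pass among the 52 anticodon pools, so the call depends on the set of pools over which the variance trend and the adjustment are taken. The initiator pool iMet, which starts protein chains and is counted separately, was at 16739, 16763 and 17067 RPM in OPCs and at 15420.1 and 18441 RPM in astrocytes. Its astrocyte libraries lay on either side of the OPC libraries, and the interval of its difference was -0.25 to 0.26. The difference between elongator and initiator was not tested. The methionine call was lost, at unchanged sign, when the values were rescaled to the listed cytosolic tRNAs (adjusted p = 0.0843), with median-of-ratios scaling (adjusted p = 0.156), with no variance trend (adjusted p = 0.19), with all 7 libraries in the fit (adjusted p = 0.157), and without OPC replicate 1 (adjusted p = 0.237), OPC replicate 2 (adjusted p = 0.203) or astrocyte replicate 2 (adjusted p = 0.0866).

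Aspartate and serine were the other amino acid pools with an unadjusted p under 0.05. Aspartate, carried by Asp-GUC alone, was at 46444, 47388 and 42161 RPM in OPCs and at 49417 and 62323 RPM in astrocytes. Astrocyte replicate 2 stood well above the other 4 libraries, and the log2 difference was 0.29 (SE 0.11, unadjusted p = 0.0134, adjusted p = 0.154). Serine was at 48607, 47127 and 51627 RPM in OPCs and at 44229.9 and 40305 RPM in astrocytes, both astrocyte libraries were below the OPC libraries, and the log2 difference was -0.22 (SE 0.093, unadjusted p = 0.0329, adjusted p = 0.253). Astrocytes were below all OPC libraries in 5 of 23 amino acid pools (21.7%) and above in 3 (13%). The 95% interval lay within 1.5-fold for 20 of the 23. The median log2 difference over the 23 pools was 0.0021. Among pools whose groups overlapped, cysteine (0.42), the suppressor-type tRNAs (0.30), valine (0.27) and proline (0.20) had the highest estimates. Tyrosine (-0.18), histidine (-0.15) and phenylalanine (-0.13), whose groups also overlapped, had estimates below 0. Alanine (-0.14), glutamine (-0.11) and leucine (-0.07) were below 0 as well, with both astrocyte libraries under all OPC libraries. Arginine, glutamate, asparagine, glycine, threonine, lysine, isoleucine and leucine all lay between -0.07 and 0.07.

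**Figure D2:**
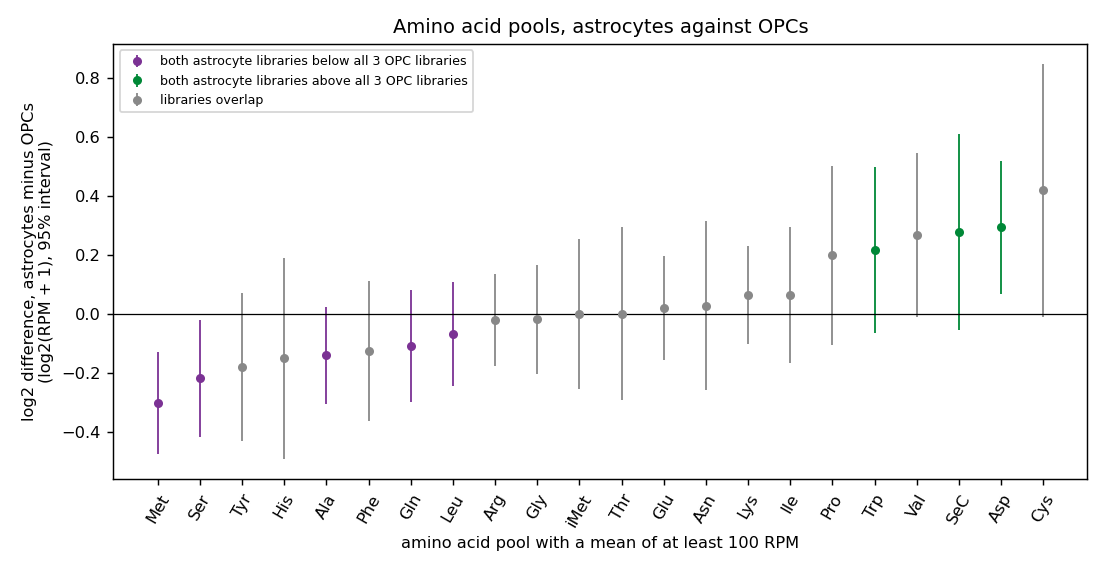
Log2 difference (astrocytes minus OPCs, y axis) of the tRNA reads summed by amino acid (x axis), with iMet and SeC as pools of their own and pools under 100 RPM left out. Points are limma estimates from 3 OPC and 2 astrocyte libraries, bars are 95% intervals, and colour marks whether the libraries overlap. Methionine, at -0.30, was the pool past an adjusted p of 0.05.

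Below the level of the pools, 14 of 192 isodecoders (7.29%) passed an adjusted p of 0.05, and all 14 fell in astrocytes. None passed 0.01 (0%), with a lowest adjusted p of 0.0197, and 40 had an unadjusted p under 0.05, of which 30 were lower and 10 higher. The log2 differences of the 14 ran from -1.72 to -0.66. The astrocyte libraries lay below all OPC libraries in 44 of 192 isodecoders (22.9%) and above in 32 (16.7%), and the median difference over the 192 was 0.013. The 14 calls rest on both astrocyte libraries and on the variance trend. No isodecoder passed 0.05 without astrocyte replicate 1 (lowest adjusted p among the 14, 0.0662) or without astrocyte replicate 2 (0.05), or with no filter on low values (0.085), and 4 passed with no variance trend, of which 3 were among the 14. There were 7 calls without OPC replicate 2 and 28, of which 10 were higher in astrocytes, without OPC replicate 3. With median-of-ratios scaling 26 passed, 19 lower and 7 higher, and all 14 were among them. All 14 kept a negative sign in each alternative that tested them.

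**Figure D3:**
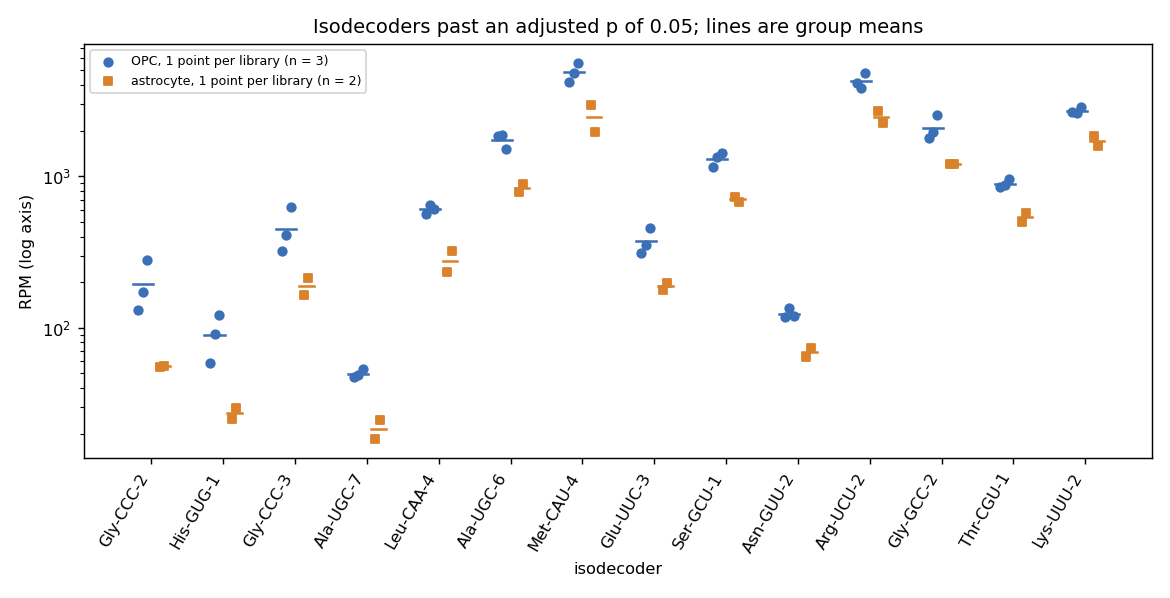
RPM (y axis, log scale) of the 14 isodecoders past an adjusted p of 0.05 (x axis, ordered by log2 difference). Circles are OPC libraries, squares are astrocyte libraries and lines are group means. In each of the 14 both astrocyte libraries lie below all 3 OPC libraries.

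None of the 14 was the most abundant isodecoder of its pool, against 50 such leading isodecoders among the 192. By means over all 7 libraries, they held between 0.236% and 25.5% of the reads of their pools, with a median of 3.19%. In the OPC libraries alone, Arg-UCU-2 held 27.1% to 31.8% of its pool and Thr-CGU-1 23.5% to 29.6%. By the means over all 7 libraries, under 5% of the pool was held by 9 of the 14 and by 82 of the 192. These means include the astrocyte libraries, in which the 14 were low. In the OPC libraries alone, Met-CAU-4 and Leu-CAA-4 of those 9 held more than 5%, with means of 6.23% and 5.87%. They came from 12 pools, and 9 of the 14 had a single gene copy, as had 135 of the 192. Together they made up 1.95%, 2.05% and 2.32% of the cytosolic tRNA reads in the OPC libraries and 1.24% and 1.09% in the astrocyte libraries. Their 12 parent pools had a median log2 difference of -0.089. Astrocyte libraries were below all OPC libraries in 4 of the 12, against 10 of all 52 pools (19.2%). The 12 were picked because a member fell, and the reads of that member are part of the pool value, so this count is no separate evidence.

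**Figure D4:**
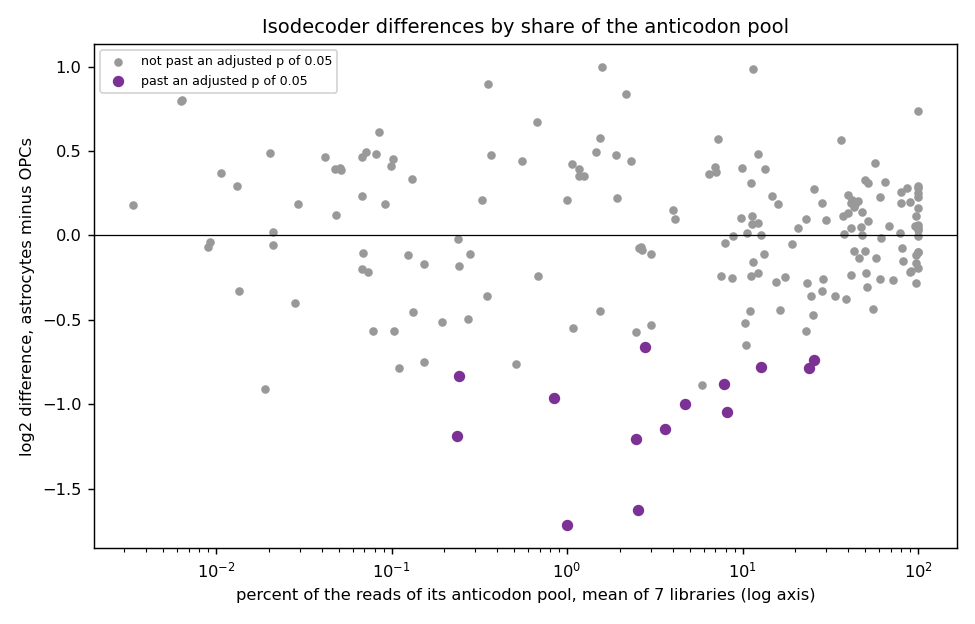
Log2 difference (astrocytes minus OPCs, y axis) of each of the 192 isodecoders against its share of the reads of its anticodon pool (x axis, log scale, mean of 7 libraries). Each point is 1 isodecoder and the 14 past an adjusted p of 0.05 are marked. The marked points lie between 0.236% and 25.5% of their pools, all below 0.

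The largest fall was in the glycine pool Gly-CCC, whose main codon is GGG. Gly-CCC-2, with 2 genes, was at 131, 174 and 280.4 RPM in OPCs and at 55.0 and 56.3 RPM in astrocytes. The astrocyte libraries were nearly equal and under the lowest OPC library, while the highest OPC library was more than 2 times the lowest. The log2 difference was -1.72 (SE 0.31, adjusted p = 0.0233). Gly-CCC-3, a single-copy member, was at 322, 407 and 626 RPM in OPCs and at 165 and 214 RPM in astrocytes, a log2 difference of -1.20 (SE 0.28, adjusted p = 0.0366). OPC replicate 3 was the highest library for both. Gly-CCC-1, which held at least 92.9% of the pool in each of the 5 libraries, did not pass the test, with a log2 difference of -0.16 and an interval of -0.41 to 0.08. RefSeq lists 6 Gly-CCC genes on GRCm38, the same number as the table. They lie at chr3:96351167-96351237, chr3:96382911-96382981, chr3:96424033-96424103, chr4:32230250-32230320, chr6:86403893-86403963 and chr17:25875088-25875158. In GENCODE 3 of the 6 overlap no other gene, and the chr17 copy overlaps an exon of Mettl26. The sources used here do not pair RefSeq genes with isodecoder numbers. In the glycine pool Gly-GCC, which reads GGC and GGU, the 8-copy isodecoder Gly-GCC-2 fell. It averaged 2095 RPM ± 387 (SD, n = 3) in OPCs against 1208 RPM ± 7.44 (SD, n = 2) in astrocytes, a log2 difference of -0.78 (SE 0.17, adjusted p = 0.0259). The Gly-GCC pool as a whole differed by -0.01, with an interval of -0.25 to 0.23.

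In the alanine pool Ala-UGC 2 minor isodecoders passed. Ala-UGC-6, the isodecoder with the lowest p of the 192, was at 1845, 1859.9 and 1522 RPM in OPCs and at 793 and 888 RPM in astrocytes. The groups were far apart against their own spread, and the log2 difference was -1.05 (SE 0.15, adjusted p = 0.0197). Ala-UGC-7, with 2 genes and 0.236% of the pool, was at 47.0, 49.0 and 53.4 RPM in OPCs and at 18.3 and 24.7 RPM in astrocytes, a log2 difference of -1.19 (SE 0.25, adjusted p = 0.0259). The leading member, Ala-UGC-2/3, was at 9513, 8789.6 and 7595 RPM in OPCs and at 8279 and 9556 RPM in astrocytes and did not pass, with an interval of -0.25 to 0.35. RefSeq places 11 Ala-UGC genes on GRCm38, as many as the table, and 7 of the 11 lie on chromosome X.

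Among tRNAs for the sulphur amino acid methionine, the single-copy Met-CAU-4 was at 4186, 4777 and 5609 RPM in OPCs and at 2951 and 1970.4 RPM in astrocytes. Both astrocyte libraries were below the OPC libraries, and the log2 difference was -1.0 (SE 0.19, adjusted p = 0.024). By the mean over all 7 libraries it held 4.67% of its pool, and in the OPC libraries alone the mean was 6.23%. The pool was itself lower. The leading Met-CAU-1 differed by -0.26, with an interval of -0.51 to -0.01.

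Among the tRNAs for basic and acidic amino acids, His-GUG-1 had the largest fall. This single-copy histidine isodecoder was at 58.3, 90.7 and 122 RPM in OPCs and at 25.2 and 29.7 RPM in astrocytes, a log2 difference of -1.62 (SE 0.32, adjusted p = 0.024). The 8-copy His-GUG-2, which held at least 95.6% of the pool in every library, differed by -0.12 with an interval of -0.43 to 0.19. Lys-UUU-2, in the pool that reads AAA and AAG, was at 2649.7, 2602 and 2874 RPM in OPCs and at 1855 and 1581 RPM in astrocytes, a log2 difference of -0.66 (SE 0.13, adjusted p = 0.024). The Lys-UUU pool as a whole had an estimate of the opposite sign, 0.09, with an interval of -0.18 to 0.36. Glu-UUC-3, in the pool that reads GAA, also fell. It averaged 372 RPM ± 75.8 (SD, n = 3) in OPCs against 188 RPM ± 14.5 (SD, n = 2) in astrocytes, a log2 difference of -0.96 (SE 0.21, adjusted p = 0.0259).

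The remaining calls were in leucine, serine, threonine, asparagine and arginine pools. Leu-CAA-4, which reads UUG and has a single gene, was at 567, 646 and 612 RPM in OPCs and at 234 and 319 RPM in astrocytes. The OPC libraries were close together and the astrocyte libraries well below them, with a log2 difference of -1.15 (SE 0.19, adjusted p = 0.0221). Its pool, Leu-CAA, differed by 0.09 with overlapping libraries. All 4 RefSeq genes of Leu-CAA overlap no other GENCODE gene, with 3 of the 4 on chromosome 13. Thr-CGU-1 was at 846, 879 and 954 RPM in OPCs and at 501 and 570.2 RPM in astrocytes, a log2 difference of -0.74 (SE 0.15, adjusted p = 0.0241), in the pool with the lowest estimate of all. Asn-GUU-2, a member with 0.241% of its pool by the mean over all 7 libraries, had a log2 difference of -0.83 (SE 0.21, adjusted p = 0.0488).

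Serine tRNAs with the anticodon GCU, which read AGC and AGU, held minor members with estimates of opposite sign. Ser-GCU-1 was at 1148, 1344 and 1418 RPM in OPCs and at 733 and 676 RPM in astrocytes and fell, with a log2 difference of -0.88 (SE 0.15, adjusted p = 0.0233). Ser-GCU-5 was at 165, 161 and 176 RPM in OPCs and at 457 and 246 RPM in astrocytes. Astrocyte replicate 1 was far above astrocyte replicate 2, both were above all OPC libraries, and the log2 difference of 1.0 (SE 0.26, adjusted p = 0.0559) did not pass 0.05. It passed after rescaling to the listed cytosolic tRNAs (adjusted p = 0.041). It was the highest estimate of all 192 isodecoders. The leading Ser-GCU-3 differed by -0.07, with an interval of -0.42 to 0.27.

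The Arg-UCU pool, which reads the arginine codons AGA and AGG, has 5 isodecoders with 1 gene each, and all 5 were measured. Arg-UCU-4 is known as n-Tr20, a tRNA whose expression is largely confined to the nervous system and whose mutation in a common laboratory strain impairs its maturation. RefSeq lists 5 Arg-UCU genes on GRCm38, at chr1:173390329-173390402, chr3:122292948-122293032, chr11:69123482-69123568, chr13:21917162-21917247 and chr19:12011588-12011673. GENCODE places the chromosome 1 gene within Aim2 outside its exons, those on chromosomes 3 and 11 over exons of Gm17494 and Hes7, and the last 2 outside other genes.

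The pool as a whole differed by -0.07, with an interval of -0.23 to 0.09. Arg-UCU-2 fell. It was at 4117, 3817 and 4832 RPM in OPCs and at 2695 and 2238 RPM in astrocytes, a log2 difference of -0.79 (SE 0.15, adjusted p = 0.024). Arg-UCU-5, the least abundant member, was at 565, 549.8 and 534 RPM in OPCs and at 370.2 and 391 RPM in astrocytes. The groups were far apart against their spread, but the difference of -0.53 (SE 0.15, adjusted p = 0.0793) did not pass. Arg-UCU-4 was at 721, 883 and 822 RPM in OPCs and at 1111 and 987 RPM in astrocytes. Both astrocyte libraries were above the OPC libraries, and the difference of 0.38 (SE 0.16, unadjusted p = 0.0414, adjusted p = 0.221) did not pass. The leading Arg-UCU-1 was at 6882, 6093 and 5794 RPM in OPCs and at 7016 and 7350.4 RPM in astrocytes, a log2 difference of 0.20 (SE 0.12, adjusted p = 0.349). Arg-UCU-3 overlapped between groups, at 0.04.

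**Figure D5:**
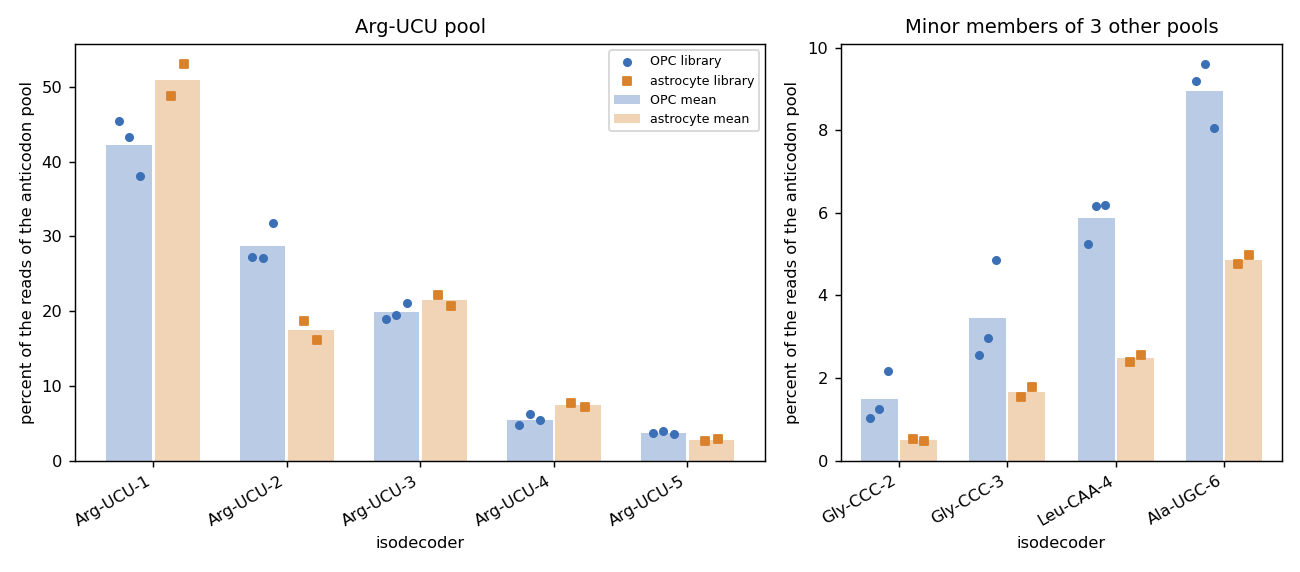
Percent of the reads of the anticodon pool (y axis) held by each isodecoder (x axis), for the 5 members of Arg-UCU (left) and for Gly-CCC-2, Gly-CCC-3, Leu-CAA-4 and Ala-UGC-6 (right). Bars are group means, circles are the 3 OPC libraries and squares the 2 astrocyte libraries. Arg-UCU-2 held 27.1% to 31.8% of its pool in OPCs and 16.2% and 18.7% in astrocytes.

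Isodecoders were also compared as shares of their own pool, which removes any difference of the pool itself. Of 184 isodecoders in 42 pools with at least 2 tested members, none passed an adjusted p of 0.01 (0%) or 0.05 (0%) in limma, and 43 had an unadjusted p under 0.05, 27 lower and 16 higher. Shares of astrocytes lay below those of all OPC libraries for 43 (23.4%) and above for 37 (20.1%). The lowest adjusted p value, 0.05003, was shared by Leu-CAA-4, Ala-UGC-6, Lys-UUU-2 and iMet-CAU-2. Leu-CAA-4 held 5.24, 6.17 and 6.2% in OPCs and 2.39 and 2.56% in astrocytes, a log2 difference of the share of -1.24. Ala-UGC-6 held 9.2, 9.61 and 8.06% in OPCs and 4.77 and 4.97% in astrocytes, a difference of -0.88. Lys-UUU-2 held 3.56, 3.94 and 4.14% in OPCs and 2.29 and 2.31% in astrocytes, a difference of -0.75. For Leu-CAA-4, Ala-UGC-6 and Lys-UUU-2 the astrocyte libraries were close to each other and well under the OPC libraries. The share of iMet-CAU-2, a tRNA at a mean of 23.1 RPM, was higher in astrocytes. It was 0.116, 0.111 and 0.111% in OPCs and 0.144 and 0.142% in astrocytes, a difference of 0.33. All 14 isodecoders that fell in RPM were among the 184, and 13 of the 14 shares lay below those of all OPC libraries, which is no separate evidence since the same reads enter both values. The count of calls at 0.05 was 7 when only isodecoders of at least 100 RPM were tested and 13 with all 7 libraries in the fit. Both included Leu-CAA-4, Ala-UGC-6 and Lys-UUU-2.

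Among the shares with an unadjusted p under 0.05 and at least 100 RPM, 20 were lower and 9 higher. The largest higher estimates were Ser-GCU-5 at 1.11, Arg-UCG-2 at 0.47, Arg-UCU-4 at 0.45, Val-AAC-4 at 0.25 and Arg-ACG-3 at 0.25. Arg-UCU-4 held 4.76, 6.27 and 5.41% in OPCs and 7.73 and 7.13% in astrocytes, with an adjusted p of 0.171. The largest lower estimates were Gly-CCC-2 at -1.51, Leu-CAA-4, Thr-AGU-5 at -1.11, Gly-CCC-3 at -1.0 and Glu-UUC-3 at -0.95. The single-copy Thr-AGU-5 held 6.12, 8.03 and 9.4% in OPCs and 3.57 and 3.55% in astrocytes. In RPM it differed by -0.88 (SE 0.24, adjusted p = 0.059), while Thr-AGU-2, the main member of the same pool, was higher at 0.43 (SE 0.14, adjusted p = 0.131), so neither passed.

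Among all isodecoders of at least 100 RPM whose libraries did not overlap, the higher estimates beside Ser-GCU-5 and Thr-AGU-2 were at most 0.40. Asp-GUC-2 (0.40), Trp-CCA-2 (0.40), Arg-UCU-4 (0.38), Arg-UCG-2 (0.37), Pro-UGG-2 (0.33), Ile-AAU-1 (0.29), SeC-UCA-1 (0.28) and Asp-GUC-1 (0.28) had adjusted p values between 0.131 and 0.255 together with Thr-AGU-2. Asp-GUC-1, with 13 genes, was at 40264, 41226 and 37061 RPM in OPCs and at 42542 and 53879.7 RPM in astrocytes. It is the main aspartate tRNA, and astrocyte replicate 2 was far above the other libraries.

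The median absolute log2 difference was 0.191 over the 50 leading isodecoders and 0.361 over the other 142, which hold most of the tRNAs under 100 RPM. Among those of at least 100 RPM it was 0.189 and 0.266, and the gap was not tested. In that class astrocytes were below OPCs in 8 of 46 leading isodecoders and above in 8, and below in 29 of 76 other isodecoders and above in 9. Over all 192 isodecoders they were below in 44 (22.9%) and above in 32 (16.7%). Whether these counts differ between classes was not tested. The median difference was -0.398 over the 30 isodecoders of 100 to 1000 RPM, 0.037 over the 92 of at least 1000 RPM and 0.187 over the 70 under 100 RPM, against 0.013 over all 192. The share of cytosolic tRNA reads outside the leading isodecoder of each pool was 24.6%, 25.1% and 26.9% in the OPC libraries and 24% and 23.8% in the astrocyte libraries. OPC replicate 3 was the highest and the groups did not overlap. The difference of -1.58 percentage points gave p = 0.2 in a two-sided exact permutation test over 10 arrangements, of which 0.1 is the smallest p possible, so this design cannot reach 0.05.

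Pools that share a feature of the anticodon were then described together. Of the 10 pools whose first anticodon base is A, 8 are known to have it edited to inosine, and Gly-ACC and Cys-ACA were not in this list. Among the 8, 1 was below and 1 above in astrocytes, and the median log2 difference was -0.0099. The 4 pools in which G is replaced by queuosine, for aspartate, asparagine, histidine and tyrosine, had a median of -0.060. Within them Asp-GUC was at 0.29, while Tyr-GUA was at -0.18, His-GUG at -0.15 and Asn-GUU at 0.03. The 4 pools whose first base carries the mcm5U or mcm5s2U modification, Lys-UUU, Glu-UUC, Gln-UUG and Arg-UCU, had a median of -0.042. Glu-UUC, at 32203, 33363 and 32836 RPM in OPCs and at 31315 and 33691 RPM in astrocytes, was among the most even pools, with an interval of -0.16 to 0.13. None of the listed pools passed an adjusted p of 0.05, and over all 52 pools the median was 0.0029.

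A list of 10 pools taken from those that the study discusses, Phe-GAA, Leu-UAA, SeC-UCA, Lys-UUU, Glu-UUC, Gln-UUG, Arg-UCU and the alanine pools Ala-AGC, Ala-CGC and Ala-UGC, had a median of -0.13, with 8 of the 10 estimates below 0. Over all 52 pools, 24 estimates were below 0 and 27 above. The study discusses further pools, Cys-GCA (0.42), His-GUG (-0.15) and Leu-CAG (0.18) among them, and it took up some of the 10 from these libraries, so the count of signs is not independent evidence of a direction. Phe-GAA was at 47656, 43589.6 and 51331 RPM in OPCs and at 49184 and 38422 RPM in astrocytes. The astrocyte libraries differed from each other by more than the OPC libraries did, and the interval was -0.49 to 0.23. Lys-UUU was at 74477, 66015 and 69346 RPM in OPCs and at 80947 and 68574 RPM in astrocytes, with overlapping groups. Ala-AGC, the main alanine pool, was at 62715, 68618 and 65035 RPM in OPCs and at 57574 and 62173 RPM in astrocytes, a log2 difference of -0.13 (SE 0.07, adjusted p = 0.446), and Ala-CGC was at -0.14. The 10 branched-chain pools, for leucine, isoleucine and valine, had a median of 0.14, with 8 of the 10 estimates above 0. The valine pools Val-AAC (0.31), Val-CAC (0.30) and Val-UAC (0.23) had estimates above 0 that rest on astrocyte replicate 1. Without that library they were 0.03, 0.082 and 0.035. Val-CAC was at 14878, 11877 and 15247 RPM in OPCs and at 19953 and 14731 RPM in astrocytes, so astrocyte replicate 1 alone was above the OPC libraries. The 11 pools for acidic and basic amino acids had a median of 0.0053, with 6 of the 11 above 0.

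Summed by the first anticodon base, the composition of the cytosolic tRNA reads differed little. Pools with a first base C took 35.3%, 36.4% and 35.5% of the reads in OPCs and 34.7% and 35.8% in astrocytes. Pools with a first base U took 32.6% ± 0.566 (SD, n = 3) in OPCs and 32.4% ± 1.51 (SD, n = 2) in astrocytes, and those with a first base A 12.2% in each group. Pools with a first base G took 19.6%, 19.5% and 19.2% in OPCs and 19.6% and 20.7% in astrocytes, the difference being 0.742 percentage points. This was the largest of the 4 differences, and an exact two-sided permutation test gave p = 0.1, the smallest possible here, and 0.4 after Benjamini-Hochberg adjustment over the 4 bases. For the other bases the p was at least 0.6.

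Isodecoders of one pool can differ by few bases, and the authors counted only reads mapped with enough confidence to one of them. The values of minor isodecoders depend on that assignment, and its part in the 14 calls was not tested. OPC replicate 3 had the highest value of the 3 OPC libraries for 11 of the 14, against 106 of all 192 isodecoders. It also had the smallest share of reads outside the cytosolic tRNAs among the 5 libraries, at 4.98% against 6.82% to 7.88%. Without that library there were 28 calls, which included all 14.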

How the data were processed

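Reads came from QuantM-seq of 7 mouse libraries, of which the 3 OPC and 2 astrocyte libraries were compared. Group and replicate of each library follow the deposited labels, and the study calls the replicates biological. Per the methods of the study, the authors trimmed adapters and the 3′ CCA with cutadapt, mapped with bowtie2 to high-confidence mm10 tRNAs collapsed by sequence, and counted strand-specifically with featureCounts at a minimum mapping quality set by them. The deposited values are RPM of all tRNA reads, and each anticodon value was the sum of its isodecoders. The authors' deposited OPC and oligodendrocyte comparisons (fold changes and p-values from DESeq2) were not used. All RPM values were whole multiples, within 0.1 read, of the value of 1 read, which gave the read totals. Fewer than 100 low values per library carried that step, so no count test between groups was run. The read totals were used only for the limit of 3 reads and for the chi-square of replicate libraries against counting error.

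Log2(RPM + 1) was compared by limma (version 3.58.1, R 4.3.3; moderated, two-sided, variance trend on) on the 5 libraries, with Benjamini-Hochberg adjustment over all 52 anticodons, the 192 isodecoders that averaged at least 1 RPM over 7 libraries, or the 23 amino acid pools. This scale understates changes of low tRNAs. For shares, 184 isodecoders were taken relative to their pool, without the trend. Shares of reads were compared by exact permutation tests. Thresholds were 0.01, after the study, and 0.05. Named were pools with an unadjusted p under 0.05, the 5 largest per direction of at least 100 RPM without overlap, list members, isodecoders past 0.05, up to 10 per direction of at least 100 RPM without overlap, the Arg-UCU members, up to 5 shares per direction with an unadjusted p under 0.05, and all amino acids. Leading members of pools that hold a called isodecoder, other pools without overlap, Gly-ACC and the valine and cysteine pools were named after their values were seen. The members and lists were chosen with earlier results of these data known. The limma tests were also run on simulated data with independent normal noise and with the replicate spreads shuffled across tRNAs. The shuffling removes the relation of spread to level that the variance trend uses. The simulation is therefore no check of the 14 calls, which rest on that trend. Gene coordinates came from RefSeq and their context from GENCODE, both on GRCm38. Sequences of the tRNAs were not used here.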

Additional observations from a re-analysis of the deposited data

How the results depend on the processing

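No anticodon passed 0.01 or 0.05 in any alternative except 1, Ser-UGA, at 0.05 with all 7 libraries in the fit, and leaving out Cys-ACA, an alternative chosen after seeing the data, gave no call. Of the isodecoders, 16 passed 0.01 with median-of-ratios scaling, 10 with all 7 libraries, 1 with a minimum mean of 100 RPM and 24 with a replicate block, and 26 passed 0.05 with median-of-ratios scaling, 4 with no variance trend, 0 with no filter and 36 with the replicate block, 21 lower and 15 higher, which included all 14. Leaving out 1 library gave from 0 to 17 at 0.01 and from 0 to 28 at 0.05. Of the shares, 4 passed 0.05 with a pseudocount of 0.1, 3 with a pseudocount of 10, 13 with all 7 libraries, 7 with a minimum mean of 100 RPM, and from 0 to 3 with 1 library left out. Of the amino acid pools, 0 passed 0.05 after rescaling to the cytosolic tRNAs, median-of-ratios scaling, no variance trend or all 7 libraries, 2 (methionine and valine) passed with the replicate block, and leaving out 1 library gave from 0 to 2 at 0.01 and from 0 to 5 at 0.05. Without astrocyte replicate 1 those 5 were Asp, Met, Phe, Ser and Tyr, and without OPC replicate 3 Cys, Met and Val passed. Ser-GCU-5 passed 0.05 after rescaling to the cytosolic tRNAs (adjusted p = 0.041), with median-of-ratios scaling, with all 7 libraries, with the replicate block and without OPC replicate 3. The cause of these changes was not tested.

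The study states that its astrocytes were made from its OPCs, but not which OPC replicate gave which astrocyte library, so the replicate numbers are not stated to pair the samples. The deviations of same-numbered OPC and astrocyte libraries correlated at -0.0746 for number 1 and 0.343 for number 2. Astrocyte replicate 1 correlated best with OPC replicate 3. With 2 astrocyte libraries their deviations are mirror images, so each OPC library has correlations of equal size and opposite sign with them. These correlations are not separate checks and cannot settle the pairing. The replicate block, a term for the number, is therefore given here only.

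Signs turned for the following differences, none of which had passed its test. With the replicate block Asn-GUU and Asn were at -0.071, Arg at 0.025 and Gly at 0.00362 on the log2 scale. After rescaling to the cytosolic tRNAs Glu-UUC was at 0.01, Arg at 0.00422 and Gly at 0.00702, and with median-of-ratios scaling these were at 0.00915, 0.00317 and 0.00598. With isodecoders of at least 100 RPM iMet was at -0.00156. With 1 library left out the ranges crossed 0 for Asn-GUU and Asn (-0.212 to 0.27), Glu-UUC (-0.067 to 0.039), Lys-UUU (-0.027 to 0.213), Phe-GAA and Phe (-0.304 to 0.053), iMet-CAU and iMet (-0.128 to 0.13), Arg-UCU-3 (-0.033 to 0.12), Arg (-0.055 to 0.025), Glu (-0.077 to 0.119), Gly (-0.055 to 0.021), Lys (-0.022 to 0.151) and Thr (-0.071 to 0.109). In percentage points they crossed 0 for the shares of first base U (-1.26 to 0.881), A (-0.0985 to 0.0799) and C (-1.08 to 0.032), while first base G ran from 0.202 to 1.28 and the share outside the leading isodecoder from -2.03 to -0.902. Of 92 single tRNA or amino acid results, 78 kept their sign in each alternative tried. The 25 isodecoders left out averaged under 1 RPM over the 7 libraries, below the level of 3 reads in each library. Some single values were above that level, such as Cys-GCA-12 at 2.99 RPM in astrocyte replicate 1. In the fit with no filter, which included these isodecoders, 0 isodecoders passed 0.05.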
